A study of Mus musculus with 5 samples.

Results

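Genes for building ribosomes in the nucleolus were followed across 5 arrays of mouse CD8 T cells in culture. A list of 40 nucleolar and ribosome assembly genes was set, which left out RNA polymerase subunits and DEAD-box helicases, and each listed gene with a probe set that carried its name alone was taken. That gave 35 genes of the 8251 named on the array. Each is described by the probe set with the highest mean log2 signal over the 5 arrays. Of the other 5, Npm3, Dkc1, Nop14 and Nle1 are not among the singly named probe sets, and the Mrto4 probe set also carries the names of Mrto4 pseudogenes, so these genes were not analysed here.

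The cells came from C57BL/6 mice aged 6 to 8 weeks that carry the OT-I T cell receptor transgene, so nearly all of their CD8 T cells recognise an ovalbumin peptide. CD44lo CD8+ cells were enriched from lymph nodes and stimulated on latex microspheres coated with the peptide bound to H-2Kb and with B7-1, which engages CD28 on T cells. The 3 groups were cells harvested at 72 h with murine IL-21 (1 array), at 48 h with murine IL-21 (2 arrays) and at 48 h without it (2 arrays). Human IL-2 was in all cultures. The samples are labelled as biological replicates, without a word on separate cultures or mice, and the p-values below therefore reflect only how far these samples lay apart, which may be technical. The 72 h comparison concerns cells with IL-21 alone, and time without IL-21 was not analysed at that hour.

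A ribosome starts as a long precursor RNA that RNA polymerase I transcribes in the nucleolus. Small nucleolar RNAs, held in box C/D or box H/ACA protein particles, guide the chemical modification of this precursor. Separate sets of assembly factors then cut and fold it into the small and the large ribosomal subunit. Resting T cells have small nucleoli, and stimulation through the antigen receptor and CD28 is known to enlarge them. The transcription factor MYC is a known activator of many of these genes.

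All signals below are deposited probe set intensities after quantile normalisation, in signal units, and differences are on the log2 scale. Values for different probe sets cannot be ranked against each other, because each binds its transcript with its own strength. Before normalisation the trimmed mean signal was 65.8 on the 72 h array, 105 and 105 at 48 h with IL-21, and 75.3 and 65.2 at 48 h without it. The T cell genes Cd3e, Cd3g, Cd3d, Cd247, Cd8a, Cd8b1, Cd2, Cd5 and Thy1 all passed the filter on low signal (a mean log2 signal above the 40th percentile). Precision was limited by there being only 5 arrays.

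Between 48 and 72 h with IL-21, transcripts of the ribosome biogenesis genes were lower across nearly every step of the pathway. Of the 34 genes that passed the filter, 28 fell at an adjusted p under 0.05 in limma with Benjamini-Hochberg adjustment over all 7453 probe sets, 0 rose and 6 did not pass. Over all probe sets tested, 7.12% were called lower and 4.04% higher. The median log2 difference of the 34 was -1.48, beside -0.01 over all probe sets. At least 2-fold lower were 26 of the 34, where 8.51% of all probe sets were. The gene that missed the filter, Wdr12, had a difference of -0.15. The genes were chosen with earlier results of these data known, so these counts describe the list and are no independent support for its direction.

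The 72 h group is 1 array, and the test assumed that it varies like the 48 h groups. When either 48 h array with IL-21 was left out, 0 of the 34 genes and 0 of all probe sets passed, with smallest adjusted p of 0.0798 without the first and 0.0627 without the second, while the median difference was -1.49 and -1.57. At an unadjusted p under 0.05 there were still 1703 and 1748 probe sets. Without the trend of variance on signal 0 passed as well, with a smallest adjusted p of 0.0525 in limma and 1843 probe sets at an unadjusted p under 0.05. The 34 differences were negative in each of these fits. Scaling changed the split of calls over all probe sets, which was 301 higher and 531 lower after quantile normalisation, 122 and 552 with arrays centred on their medians, 101 and 2027 without scaling, and 318 each way when scaled on the hybridisation controls. Among the 34 genes, 28 were called lower with centred arrays, 34 without scaling and 25 on the hybridisation controls, and 0 higher in each.

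**Figure D1:**
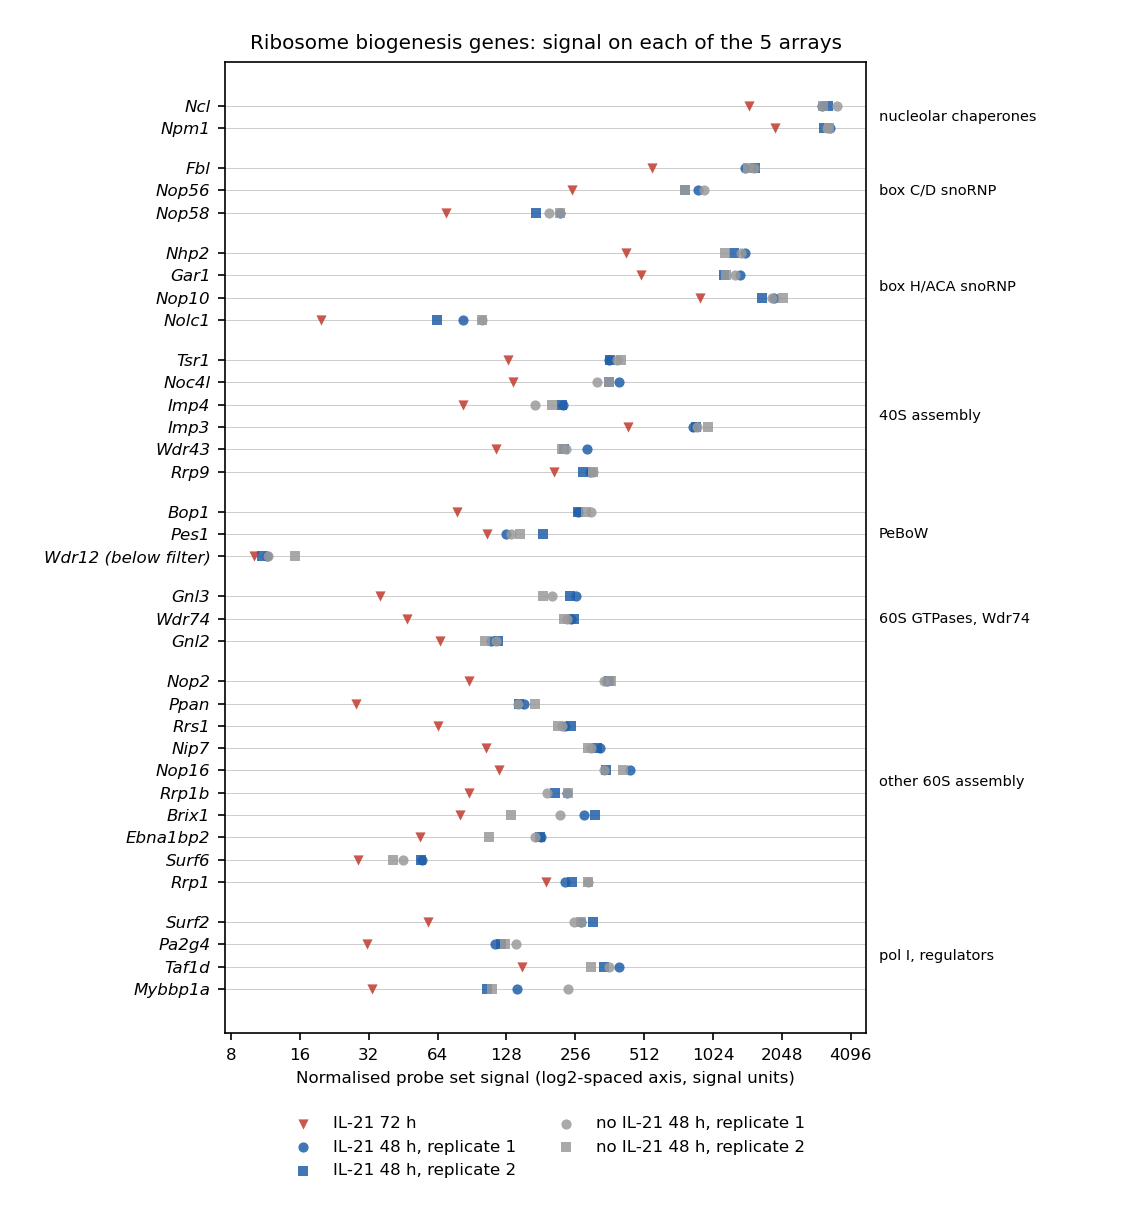
Normalised signal of each of the 35 ribosome biogenesis genes (rows, grouped by role) on each of the 5 arrays, on a log2-spaced axis. The 72 h array (red triangles) lies below all 4 arrays at 48 h (blue with IL-21, grey without) in every row, by the least in Wdr12, which missed the filter, and Rrp1, and the 48 h symbols largely overlap.

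The plot of signals by array shows that the 72 h value lay below all 4 arrays at 48 h for 34 of the 34 genes that passed the filter, beside 33.8% of all probe sets. For 31 of them the gap to the lowest 48 h array was larger than the whole range of the 48 h arrays, beside 16.4% of all probe sets. The exceptions were Pes1, Brix1 and Rrp1. Set against single arrays, the median difference of the 72 h array was -1.60 and -1.49 to the 48 h arrays with IL-21, and -1.49 and -1.42 to those without it. Medians between any pair of the 48 h arrays lay between -0.00 and 0.05.

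The promoters of 4 genes that fell are printed here, 3 because they hold the hexamer CACGTG, the E-box bound by MYC with MAX, before the start, and that of Gnl3 because its difference was the largest among the probe sets that represent the genes. Each is the 250 bases before the transcription start in RefSeq on GRCm38.p6, written 5′ to 3′ on the gene's strand, with capitals for the motifs searched.
Imp4, chr1:34439579-34439828, plus strand: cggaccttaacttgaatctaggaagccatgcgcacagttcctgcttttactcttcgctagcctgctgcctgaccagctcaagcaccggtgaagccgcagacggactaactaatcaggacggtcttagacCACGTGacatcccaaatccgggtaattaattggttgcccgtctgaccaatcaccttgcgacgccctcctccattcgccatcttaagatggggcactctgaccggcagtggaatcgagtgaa
Nop2, chr6:125131633-125131882, plus strand: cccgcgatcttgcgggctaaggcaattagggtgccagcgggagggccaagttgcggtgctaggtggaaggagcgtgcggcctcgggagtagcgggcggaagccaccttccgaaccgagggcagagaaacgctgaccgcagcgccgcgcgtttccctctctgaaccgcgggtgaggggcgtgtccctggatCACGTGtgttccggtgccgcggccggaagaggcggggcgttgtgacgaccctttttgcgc
Surf2, chr2:26916158-26916407, plus strand: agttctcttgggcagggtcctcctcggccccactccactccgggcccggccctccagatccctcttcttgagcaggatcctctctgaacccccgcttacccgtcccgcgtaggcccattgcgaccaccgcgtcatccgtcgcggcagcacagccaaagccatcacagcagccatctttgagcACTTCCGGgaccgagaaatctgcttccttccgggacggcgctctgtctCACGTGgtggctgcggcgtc
Gnl3, chr14:31019132-31019381, minus strand: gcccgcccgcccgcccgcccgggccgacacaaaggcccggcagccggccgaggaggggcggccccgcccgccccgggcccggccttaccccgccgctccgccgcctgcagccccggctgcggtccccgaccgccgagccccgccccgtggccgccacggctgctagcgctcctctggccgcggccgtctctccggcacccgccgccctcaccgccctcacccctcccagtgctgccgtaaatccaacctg
The E-box begins 121 bases before the start in Imp4, 60 in Nop2 and 20 in Surf2, and Surf2 also holds the ETS-type motif CCGGAAGT on the reverse strand, 68 bases before it.

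Over windows of 250 bases before and 50 after the start, 30 of the 35 genes had a promoter in the RefSeq table. CACGTG, a palindrome and so the same on both strands, was found in 7 of the 30 (23.3%), beside 12.4% of the 4559 genes tested that had a promoter in the table. Besides the 3 above these were Mybbp1a, Pes1, Tsr1 and Wdr43, where it lay within the 50 bases after the start. On either strand, CCGGAAGT was found in 10 of the 30 (33.3%), beside 10.1% of the genes tested, and CACGCG in 10 (33.3%), beside 21.0%. The palindrome TCTCGCGA was found in 2 (6.67%), Nop58 and Tsr1, beside 2.79%. In these genes no match of one motif overlapped a match of another, and a match of letters is no site of binding. Over all 27025 promoters in the table the shares were 8.09% for CACGTG, 4.31% for CCGGAAGT, 10.5% for CACGCG and 1.13% for TCTCGCGA. The 72 h difference had a median of -1.47 in the 7 genes with CACGTG and -1.56 in the 22 tested genes whose window lacks it. For CCGGAAGT the medians were -1.70 in 10 genes with it and -1.45 in 19 without, and for CACGCG -1.64 in 10 and -1.47 in 19.

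Both genes for abundant nucleolar proteins fell. Ncl encodes nucleolin, an RNA-binding protein that acts in transcription and processing of the ribosomal precursor. It had 1473 at 72 h, against 3056 and 3265 at 48 h with IL-21 and 3566 and 3105 at 48 h without it. The log2 difference was -1.10 (SE 0.12, adjusted p = 0.0105 in limma), a 2.14-fold fall. Npm1, for the histone chaperone nucleophosmin, had 1903 at 72 h, against 3312 and 3142 with IL-21 and 3222 and 3279 without it at 48 h. Its fall was 1.70-fold (-0.76, SE 0.10, adjusted p = 0.0138), and among the 34 genes it had the narrowest range over the 48 h arrays, 0.08 on the log2 scale.

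Both kinds of small nucleolar ribonucleoprotein were lower at 72 h, with 3 of 3 box C/D genes and 4 of 4 box H/ACA genes called. In the box C/D particle, Fbl encodes fibrillarin, the methyltransferase, and had 552 at 72 h, against 1414 and 1561 at 48 h with IL-21 and 1548 and 1461 without. The scaffold gene Nop56 had 246 at 72 h, against 877 and 772 with IL-21 and 933 and 769 without at 48 h. These were differences of -1.43 (SE 0.13) and -1.74 (SE 0.18), both with an adjusted p of 0.00928 in limma. For Nop58, the partner scaffold, the 72 h signal was 69.5, against 219 and 172 with IL-21 and 197 and 220.2 without (-1.48, SE 0.23, adjusted p = 0.0187). Its probe set is of a class marked as able to bind related transcripts, as are those of Nop16, Taf1d and Mybbp1a below. The groups at 48 h overlapped for all 3 genes.

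In the box H/ACA particle, which carries the pseudouridine synthase dyskerin, Nhp2 had 426 at 72 h, against 1407 and 1262 at 48 h with IL-21 and 1360 and 1160.0 without (-1.64, SE 0.16, adjusted p = 0.00928). Gar1 had 496 at 72 h, against 1338 and 1146 with IL-21 and 1273 and 1170.3 without at 48 h (-1.32, SE 0.15, adjusted p = 0.0105). Nop10 had 894 at 72 h, against 1884 and 1680 with IL-21 and 1851 and 2066 without (-0.99, SE 0.14, adjusted p = 0.0149). Transcripts of these 3 of the particle's core proteins, those measured here, thus had 72 h signals below all 48 h arrays. Nolc1, a chaperone of these particles, fell 3.68-fold (-1.88, SE 0.27, adjusted p = 0.0157) and had 19.8 at 72 h, against 82.8 and 63.9 with IL-21 and 100.3 and 99.7 without. It was the one gene of the 4 whose 48 h groups did not overlap.

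Of the genes for assembly of the small subunit, 5 of 6 fell. Tsr1, which acts late on the small subunit precursor, had 130.1 at 72 h, against 361 and 362 at 48 h with IL-21 and 388 and 407 without (-1.47, SE 0.17, adjusted p = 0.0103). Noc4l, for a nucleolar partner of NOP14, had 137 at 72 h, against 398 and 358 with IL-21 and 318 and 358 without (-1.46, SE 0.18, adjusted p = 0.0126). Imp4, a protein of the U3 particle whose promoter is printed above, had 82.3 at 72 h, against 227 and 223 with IL-21 and 170.0 and 203 without (-1.45, SE 0.21, adjusted p = 0.0158). All 3 had 72 h signals below every 48 h array. The call of Imp4 rests on its brighter probe set, and the other missed the filter, with at most 7.52 on any array. Averaged over both, dim one included, Imp4 had -0.61 (adjusted p = 0.480 in limma). The other U3-associated gene, Imp3, had -0.96 (SE 0.15), and Wdr43, a subunit of the early processing complex, had -1.15 (SE 0.21), with adjusted p of 0.0176 and 0.0272 in limma. Rrp9, a protein particular to the U3 particle, did not pass, with 206 at 72 h, against 298 and 277 with IL-21 and 305 and 305 without (-0.48, SE 0.17, adjusted p = 0.136).

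The 3 subunits of the complex of PES1, BOP1 and WDR12, which acts on the large subunit precursor, gave unlike values. Bop1 had 77.5 at 72 h, against 262 and 262 at 48 h with IL-21 and 301 and 286 without (-1.76, SE 0.18, adjusted p = 0.00928). Pes1 had 104.8 at 72 h, against 128 and 186 with IL-21 and 134 and 147 without (-0.56, SE 0.28, adjusted p = 0.258). Wdr12 was dim on all arrays, at 10.1 at 72 h, against at most 15.3 on the 48 h arrays, below the filter on low signal. Among the complex, then, Bop1 alone passed the test. Whether the 3 genes differ from one another was not tested.

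Among the probe sets that represent the genes, the largest difference was that of Gnl3, for the nucleolar GTPase nucleostemin. It had 35.8 at 72 h, against 259 and 243 at 48 h with IL-21 and 202 and 185 without, a 7.01-fold fall (-2.81, SE 0.20, adjusted p = 0.00928). Wdr74, for a factor of large subunit maturation, had 47.2 at 72 h, against 246 and 254 with IL-21 and 236 and 227 without (-2.40, SE 0.19, adjusted p = 0.00928). On both probe sets the 48 h arrays with IL-21 lay above those without. The related GTPase gene Gnl2 did not pass, with 65.4 at 72 h, against 110.2 and 117 with IL-21 and 116 and 103 without (-0.80, SE 0.22, adjusted p = 0.0722).

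Of 10 other genes of large subunit assembly and RNA processing, 8 fell, with a median of -1.74 over the 10. Nop2, a cytosine methyltransferase of the large ribosomal RNA whose promoter is printed above, had 88.2 at 72 h, against 352 and 358 at 48 h with IL-21 and 342 and 365 without. Its 4 values at 48 h lay within 0.09 on the log2 scale, and its 72 h value was 4.03-fold lower (-2.01, SE 0.17, adjusted p = 0.00928). Ppan, the mouse counterpart of the fly gene peter pan, had 28.1 at 72 h, against 154 and 145 with IL-21 and 143 and 171 without (-2.41, SE 0.23, adjusted p = 0.00928). Rrs1, whose yeast counterpart helps bring a small ribosomal RNA into the large subunit, had 64.0 at 72 h, against 230.4 and 246 with IL-21 and 225 and 215 without (-1.89, SE 0.19, adjusted p = 0.00928). The 3 genes had 72 h signals between 3.72-fold and 5.31-fold under the 48 h level with IL-21.

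The other 5 that fell were Nip7 (-1.64), Nop16 (-1.72), Rrp1b (-1.34), Brix1 (-1.87) and Ebna1bp2 (-1.75), all factors of the large subunit or its RNA, with adjusted p between 0.00928 and 0.0241 in limma. Surf6, whose yeast counterpart binds large subunit precursors, did not pass, with 28.7 at 72 h, against 54.7 and 54.2 with IL-21 and 45.2 and 40.9 without (-0.93, SE 0.27, adjusted p = 0.0827). Rrp1 had the smallest difference of those tested, with 191 at 72 h, against 232 and 249 with IL-21 and 290 and 291 without (-0.33, SE 0.18, adjusted p = 0.292). Its relative Rrp1b had 88.1 at 72 h, against 236 and 209 with IL-21 and 192 and 239 without (SE 0.22). The paralogues were thus called differently, though their difference from each other was not tested.

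In the last group, which holds a factor of RNA polymerase I, regulators and Surf2, 3 of 4 genes fell. Surf2 had 58.4 at 72 h, against 271 and 306 at 48 h with IL-21 and 251 and 272 without (-2.30, SE 0.19, adjusted p = 0.00928). Pa2g4, for a growth regulator that binds ribosome precursors, had 31.6 at 72 h, against 114 and 121 with IL-21 and 141 and 127 without (-1.89, SE 0.22, adjusted p = 0.0105). Taf1d, a subunit of the polymerase I promoter factor SL1, had 150.4 at 72 h, against 397 and 342 with IL-21 and 358 and 299 without (-1.29, SE 0.20, adjusted p = 0.0187). Mybbp1a, for a nucleolar repressor of transcription, did not pass. Its probe set had 33.1 at 72 h, against 142 and 105 with IL-21 and 238 and 111 without (-1.88, SE 0.47, adjusted p = 0.0554), and the spread of the 48 h arrays was the second widest of the list.

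**Figure D2:**
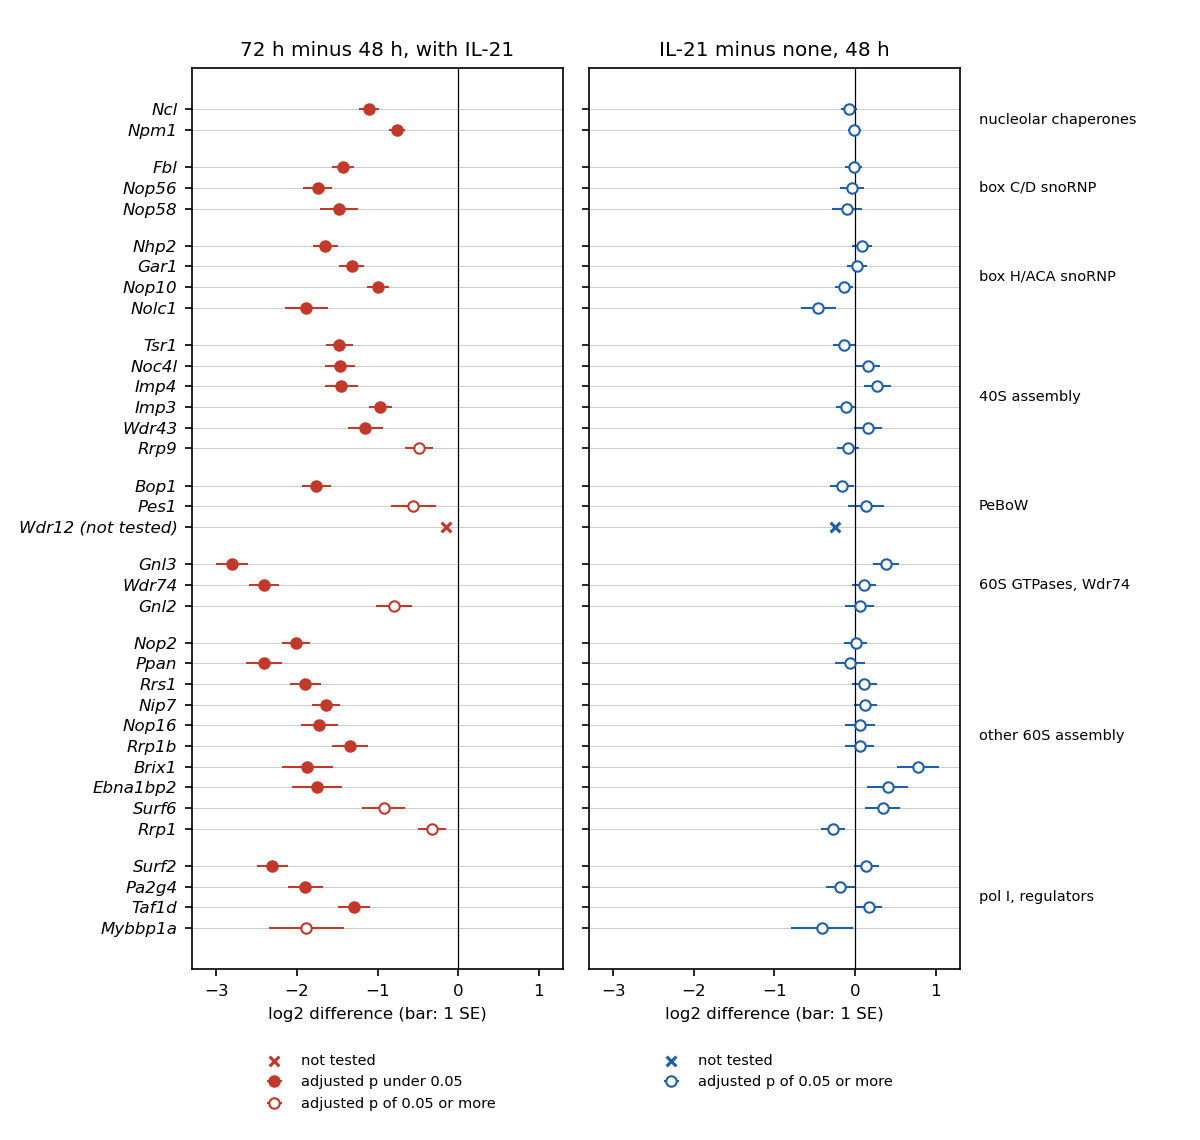
Log2 difference of each gene (rows, grouped by role) at 72 h minus 48 h with IL-21 (left, red) and with IL-21 minus without at 48 h (right, blue), with bars of 1 SE from limma; filled circles passed at an adjusted p under 0.05, open ones did not, and crosses were not tested. On the left all points lie below 0, from Gnl3 at -2.81 to Wdr12 at -0.15, and on the right they lie around 0, between -0.46 and 0.78.

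The plot of differences in both comparisons shows what IL-21 added at 48 h. No gene of the 34 passed in limma, with 0 of 7453 probe sets (0.0%) called and 327 at an unadjusted p under 0.05. The lowest adjusted p in limma was 0.967 among the 34 genes and 0.465 over all probe sets. At an unadjusted p under 0.05 there was 1 of the 34, Brix1, beside 4.39% of all probe sets. By sign 19 were higher and 15 lower with IL-21, with a median of 0.04, beside -0.01 over all probe sets. The arrays of the groups did not overlap for 15 genes, 8 higher (15.9% of all probe sets) and 7 lower (17.9%), and 33.8% of all probe sets did not overlap either way. That is 15 of 34 against a background of the same order, and with 2 arrays a group the test can miss differences of this size.

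Brix1 had the largest difference with IL-21. It had 279 and 311 with IL-21 and 220.3 and 134 without (0.78, SE 0.26, adjusted p = 0.967 in limma), and the spread between the arrays without IL-21 was close to the difference itself. Its probe set is of a class designed under relaxed rules. Gnl3 had 259 and 243 with IL-21, against 202 and 185 without (0.38, SE 0.16), and Ebna1bp2 had 180.4 and 179 with IL-21, against 171 and 108 without (0.41, SE 0.25). Nolc1 had the most negative difference, with 82.8 and 63.9 with IL-21, against 100.3 and 99.7 without (-0.46, SE 0.22). Ncl, Npm1, Fbl, Nop56 and Nop58 all had differences between -0.10 and -0.01. Within replicate number 1 and within number 2, 20 of the 34 genes had the same sign, 12 higher and 8 lower.

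The sign of the whole list at 48 h followed the scaling. Without scaling 34 of 34 differences were positive, with a median of 0.63 beside 0.57 over all probe sets, and 7 were called, where 9.34% of all probe sets were called, all higher. Scaled on the hybridisation controls, 29 were negative, with a median of -0.13 beside -0.20. Relative to all probe sets the list's median therefore lay 0.06 higher in both, and 0.04 higher after quantile normalisation.

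The genes differed in how far the 4 arrays at 48 h lay apart. The range over these arrays was between 0.08 for Npm1 and 1.21 for Brix1 on the log2 scale, with a median of 0.29, beside 0.51 over all probe sets, of which 79.6% had a wider range than this median. After Npm1 the tightest were Nop2 (0.09), Rrp9 (0.14), Fbl (0.14) and Wdr74 (0.16). A range over 0.5 was seen for 5 genes, Pes1 (0.54), Nolc1 (0.65), Ebna1bp2 (0.74), Mybbp1a (1.18) and Brix1. In Ebna1bp2 and Brix1 the second array without IL-21 was low, by 0.67 and 0.71 under the first. In Mybbp1a the first array without IL-21 was high, by 1.11. The related lists described below had median ranges between 0.18 (cytosolic ribosomal proteins) and 0.52 (MYC and MAX network), with 0.34 for the further ribosome assembly factors. Ranges were not compared at equal signal.

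**Figure D3:**
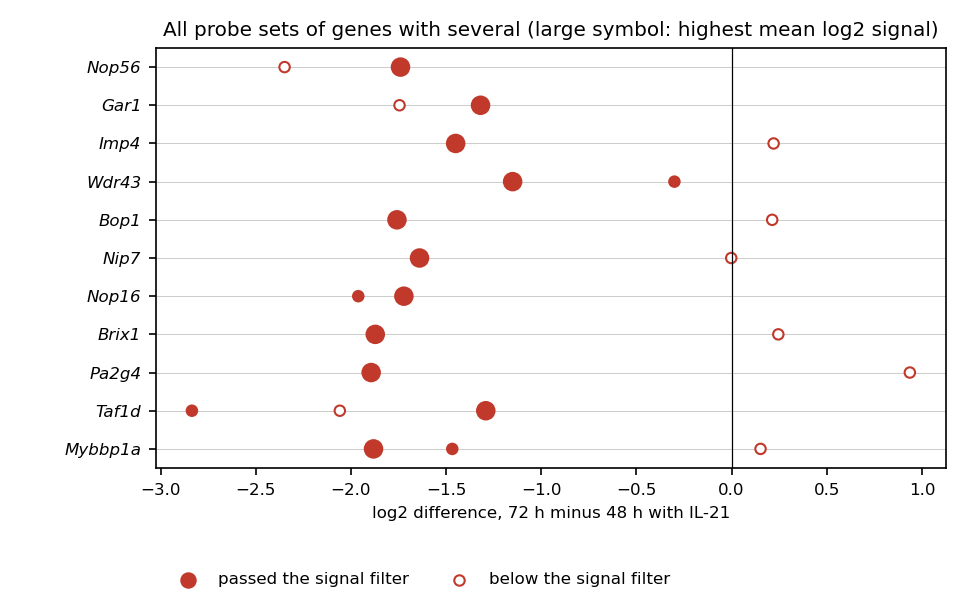
Log2 difference at 72 h minus 48 h with IL-21 of every probe set of the 11 genes with several (rows), with a large symbol for the one with the highest mean log2 signal; filled symbols passed the filter on low signal, open ones did not. All filled symbols lie below 0, between -2.84 and -0.30, and 5 of the 9 open ones lie above it.

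The plot of genes with several probe sets shows where the choice of probe set mattered. Of 13 further probe sets of 11 genes, 4 passed the filter, and of these 4 were lower at 72 h and 3 were called. The second of Taf1d had 57.1 at 72 h, against 436 and 381 with IL-21 and 421 and 271 without. Its difference was -2.84 (SE 0.29, 7.14-fold), beyond that of Gnl3, and the first of Taf1d had -1.29. The first ranks above it by mean log2 signal only, since the second was brighter on 3 of the 4 arrays at 48 h, so the size of this fall depends on the probe set. The second of Nop16 had -1.96 (SE 0.21) and that of Mybbp1a -1.47 (SE 0.26, adjusted p = 0.0241), which passed where the first did not. The second of Wdr43 had -0.30 (SE 0.33, adjusted p = 0.622), with 120.2 at 72 h, against 131 and 167 with IL-21 and 131 and 210 without. For Wdr43 the probe sets thus differed on the call. The 9 that missed the filter had signals of at most 17.3 on any array, and 4 of them were lower. Averaged over all probe sets of a gene, dim ones included, 21 of the 34 genes were called lower, with 403 of 5904 over all genes and unnamed probe sets. Those no longer called were Bop1, Brix1, Gar1, Imp4, Nip7, Pa2g4 and Wdr43, with adjusted p between 0.0504 and 0.480 in limma.

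A feature the list rule did not use is the small nucleolar RNA genes that lie inside some of these genes. By the gene spans of RefSeq, 8 of the 35 (22.9%) hold at least 1 such gene within their span on either strand, beside 2.12% of 5531 tested genes. Taf1d holds 6, Nop56 holds 5, Nop58 holds 4, Wdr43 and Gnl3 hold 3 each, Ncl and Ppan hold 2 each and Tsr1 holds 1. Their median 72 h difference was -1.48, and that of the other 26 tested genes -1.55. Over 109 other tested genes that hold such an RNA gene the median was -0.23. The arrays here did not report on the small RNAs themselves.

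**Figure D4:**
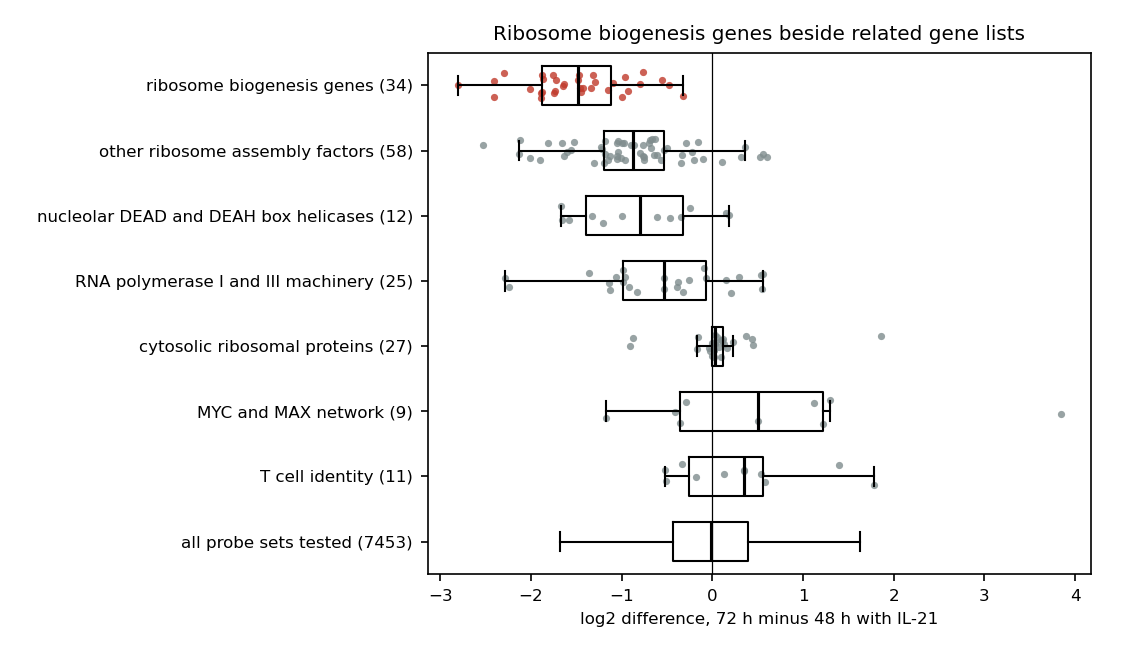
Log2 difference at 72 h minus 48 h with IL-21 for the ribosome biogenesis genes (red, top) and for related lists (grey), 1 point per gene that passed the filter, with the number of genes in brackets, and a box alone for all probe sets tested (bottom); boxes span the quartiles with the median, and whiskers reach the last value within 1.5 box lengths. The median is -1.48 for the ribosome biogenesis genes, -0.88, -0.80 and -0.54 for the next 3 lists and 0.03 for the cytosolic ribosomal proteins.

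Some other genes of the same pathway were lower as well, as the plot of related lists shows. Beside the counts below, 7.12% of all probe sets tested were called lower and 4.04% higher. Of 58 genes listed as further ribosome assembly factors 22 fell, 0 rose and 36 did not pass, with a median of -0.88 and 6 positive differences. The list also holds Ncoa5 (-0.22), by its name a nuclear receptor coactivator. Smallest in p were Ruvbl1 (-1.81, SE 0.19), an ATPase of small nucleolar ribonucleoprotein assembly, and Utp4 (-1.60) and Pno1 (-1.66), both of the small subunit. Of 12 nucleolar helicases 4 fell, 0 rose and 8 did not pass, with a median of -0.80 and 2 positive differences. Smallest in p were Ddx18 (-1.65), Ddx21 (-1.58) and Ddx51 (-1.67). Of 25 genes of the RNA polymerase I and III machinery 8 fell, 0 rose and 17 did not pass. Their median was -0.54, with 6 positive differences. Polr1a, the largest subunit of polymerase I, had 34.3 at 72 h, against 170.0 and 165 with IL-21 and 173 and 182 without at 48 h (-2.29, SE 0.20, adjusted p = 0.00928). Polr3d, a subunit of polymerase III, had -2.25 (SE 0.38), and Ubtf, the upstream binding factor of polymerase I, had -0.96 (SE 0.17).

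The ribosomal proteins themselves gave other values. Of 27 cytosolic ribosomal protein genes that passed the filter 0 fell and 1, Rpl22 (1.87, SE 0.31), rose, with a median of 0.03. The next by p did not pass. These were Rpl7l1, an Rpl7-like gene listed by its name, with -0.91 (SE 0.35, adjusted p = 0.163 in limma), and Rps19 with 0.44 (SE 0.18, adjusted p = 0.177). Quantile normalisation gives probe sets of the same rank the same value, which limits the differences that the brightest probe sets can show. Rpl41, for example, had a difference of 1.8e-15. How far this step set the median of the ribosomal proteins was not tested. Whether this list differs from the biogenesis genes was not tested either. Myc had 124 at 72 h, against 318 and 245 at 48 h with IL-21 and 239 and 275 without (-1.17, SE 0.23, adjusted p = 0.0308 in limma). It was the 1 gene of 9 in the MYC and MAX network that fell. The 2 that rose were Mxd4 (3.85, SE 0.41) and Bin1 (1.22, SE 0.20), Mxd4 encoding an antagonist of MYC at E-boxes. Mxd4 had 195 at 72 h, against 16.2 and 11.4 at 48 h with IL-21 and 15.3 and 21.6 without. Its 48 h signals were dim, so the size of this rise is uncertain. Of 11 T cell identity genes 0 fell and 3 rose, Cd3g (1.78), Cd3d (1.40) and Thy1 (0.58). All these lists share the 72 h array and the 48 h arrays with the ribosome biogenesis genes.

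In bulk RNA, fewer cells that express a gene and less RNA per cell cannot be told apart. The summed signal of 9 T cell markers was 8526 at 72 h, against 5902 and 6452 at 48 h with IL-21 and 5767 and 5872 without. Of the 9, Cd3e, Cd3g, Cd3d, Cd8b1 and Thy1 had positive differences at 72 h and Cd247 (-0.33), Cd8a (-0.51), Cd2 (-0.18) and Cd5 (-0.52) negative ones, and only Cd3g, Cd3d and Thy1 passed. For 8 B cell markers the summed signal was 1238 at 72 h, against 753 and 591 with IL-21 and 779 and 513 without. Of these, Cd22 and Blnk missed the filter, 4 had negative differences at 72 h and 1 was called higher. Their median difference was 0.04, and a sum is led by the brightest probe sets. For 14 myeloid and dendritic cell markers the summed signal was 373 at 72 h, against 278 and 235 with IL-21 and 273 and 302 without. Of these, 6 passed the filter, and Lyz2, Itgam, Adgre1, Fcgr3, Fcer1g, S100a8, S100a9 and Mpo did not. Of the 14, 4 had negative differences and 1 was called higher. For 3 CD4 T cell markers the summed signal was 45.3 at 72 h, against 26.0 and 22.8 with IL-21 and 27.3 and 25.5 without. Of these, Zbtb7b and Cd40lg missed the filter, and the 1 that passed it had a difference of 1.42 and was not called. Neither NK cell marker on the array passed. The 3′ to 5′ signal ratio was 0.886 for beta-actin at 72 h, against 0.964 and 1.01 with IL-21 and 1.03 and 0.942 without. For Gapdh it was 0.849 at 72 h, against 0.810 and 0.877 with IL-21 and 0.796 and 0.843 without. For the transferrin receptor it was 2.43 at 72 h, against 2.56 and 2.40 with IL-21 and 3.99 and 2.76 without, so the first array without IL-21 stood highest. Their part in the 72 h differences was not tested.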

How the data were processed

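RNA from 5 samples was hybridised to 1 array each. The deposited values are linear intensities per probe set, made with MAS5 per the submitters' processing notes, with its version and scaling not given in the sources used here. MAS5 is noisy near background, and detection calls were not used here. Of 12422 probe sets that were not controls, 10833 carried 1 gene name, updated through Entrez identifiers to the symbols of GRCm38.p6 (10817 matched). No sample column was left unmatched.

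Before log2, 1.53 units (the 10th percentile of all values) were added, and arrays were quantile-normalised. A change common to all genes is lost in this step, and a direction is meant against the other probe sets. Printed signals are 2 raised to the normalised log2 value and include the offset. Probe sets with a mean log2 value above the 40th percentile (7453) were tested in R 4.3.3 by limma 3.58.1. The fit had a mean for each of 3 groups, 5 arrays and 2 residual degrees of freedom, its empirical Bayes variances followed a trend on signal, and two-sided p-values were adjusted by Benjamini-Hochberg (threshold 0.05). The procedure was run on simulated data in which the lone array varied like the others, so that assumption was not checked. Lists are described by counts and medians, with no list test.

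Members and lists were chosen with earlier results of these data known. Full values are given for the 3 members of each role group with the smallest p at 72 h, and in part for the others, and for 3 genes with the smallest p of each related list and Myc. Alternatives were the scaling, the offset (16 units or none), the filter (none or the 60th percentile), the variance trend, the replicate block, leaving out each 48 h array, the probe set of a gene and the 48 h baseline. Promoter sequences, gene spans and small nucleolar RNA genes came from RefSeq tables of GRCm38.p6. Python 3.11.15 was used for counts and figures.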

Additional observations from a re-analysis of the deposited data

How the results depend on the processing

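At 72 h the members that passed the filter had negative differences under every alternative run, and 0 were called higher. The count called lower, 28 of 34, was between 21 and 34 except for 0 without the variance trend and, with each 48 h array left out in turn, 0 to 28, the 0 coming from leaving out either array with IL-21. The cause was not tested. The number of members tested was 34, except for 35 without the filter and 27 with the second probe set where a gene has several. In these 2 settings 28 and 21 were called lower. The median of -1.48 became -2.16 without scaling, -1.75 with arrays centred on their medians, -1.37 with an offset of 16, -1.38 as the mean over a gene's probe sets, -1.51 against all 4 arrays at 48 h, and -1.57 to -1.47 with each array left out. At 48 h the count called was 0 except for 7 without scaling, all higher, among them Npm1 with a reversed sign (0.54, adjusted p = 0.0483 in limma). The 48 h median of 0.04 became 0.63 without scaling, 0.10 with centred arrays, -0.13 on the hybridisation controls, and -0.014 to 0.071 with each array left out. Over all probe sets 832 were called at 72 h, 2128 without scaling, 0 to 465 with each array left out and 1860 with the replicate number as a block. At 48 h 0 were called, 696 without scaling and 11 with the block. The same replicate numbers deviated together (r = 0.36 over probe sets, 1 pair of groups), but no label ties a number to a day, batch or mouse, so the block is only an alternative. With it 31 members were called at 72 h and 0 at 48 h.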

Other observations

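Surf2 and Surf6 lie in the surfeit cluster, a set of adjacent and unrelated genes, and values for its other genes on the array were looked up. They were chosen after the values of Surf2 were seen. Surf1, which is transcribed away from Surf2 from the same promoter region, had a difference of 0.67 (SE 0.20, adjusted p = 0.0845 in limma), against -2.30 for Surf2. Surf4, on the other side of Surf2, had 0.09 (SE 0.17), and the ribosomal protein gene Rpl7a had 0.06 (SE 0.11). Of the 2 probe sets of Med22, 1 had -0.47 (SE 0.28) and 1 had 0.09 (SE 0.23). None of these 4 genes passed the test at 72 h, and Surf2 is the only gene of the cluster that did among the 6 measured here. The difference between Surf1 and Surf2 was not tested.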
